A study of Sus scrofa with 2 samples.

Results

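The genes described here are a group that act from the end of DNA replication through mitosis, called the G2/M genes below. Of 50 symbols listed, 42 were found among the 21301 genes of the deposited count matrices, and the results concern those 42. They were measured in pig thymocytes by droplet single-cell RNA sequencing with the 10x Genomics 3′ kit, in 1 library made from invariant natural killer T thymocytes (iNKT) and 1 from total thymocytes. Both libraries came from the thymi of 2 untreated pigs of mixed breed, 22 weeks of age. iNKT thymocytes were enriched by positive selection on magnetic beads, flow cytometry was used to sort live cells for each library, and both pigs' cells were combined before sequencing. Each group was thus 1 library, so no difference could be tested across animals. All intervals are exact, at 95%, and cover counting error only.

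A dividing cell condenses its chromosomes, builds a spindle, attaches each chromosome to it through the kinetochore, separates the sister chromatids and then splits its cytoplasm. Entry into mitosis is driven by the kinase CDK1 bound to cyclin B, and exit by the anaphase-promoting complex, a ubiquitin ligase that marks cyclin B and other mitotic proteins for degradation. Transcripts of these genes accumulate from late S phase to mitosis and are scarce in resting cells. In the thymus, most division takes place in the cortex, among immature cells that have just made a T cell receptor beta chain, and selected cells of the medulla divide little. iNKT cells are T cells with an invariant receptor for lipids presented by CD1d, and carry the transcription factor ZBTB16 (PLZF). In mice they expand early after selection and divide less as they mature.

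The 42 genes fell into 7 roles, with 6 genes for CDK1 and its regulators, 6 for mitotic kinases and their partners, 2 for the anaphase-promoting complex, 7 for the kinetochore, 6 for chromosome condensation, 8 for the spindle and 7 for cytokinesis. The iNKT library held 12097 barcodes and 54457966 unique molecular identifiers (UMIs), and the total thymocyte library 9112 barcodes and 29723207 UMIs. After filtering, 11273 iNKT and 8026 total cells remained, with medians of 4210 UMIs per iNKT cell and 2414.5 UMIs per total cell. To compare shares of cells at equal depth, each cell was thinned to 2000 UMIs. That left 10965 iNKT cells (97.3%) and 4774 total cells (59.5%), and shallower cells were left out. The libraries shared 41 barcodes, 30 after filtering.

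Dividing cells were picked without the 42 genes, by the UMIs of 46 other G2/M genes in the thinned cell, called the outside list. A wider class needed at least 3 such UMIs and a stricter class at least 8. The stricter one was added after the data had been seen, because among iNKT cells with 3 to 4 outside UMIs, 316 of 581 carried no UMI of the 42 genes. The tubulin gene TUBB4B supplied 30.6% of all outside UMIs in iNKT cells and 19.2% in total cells.

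Dividing cells were a smaller share of iNKT than of total thymocytes at each level tried. The stricter class held 47 of 10965 iNKT cells, or 0.429% (0.315 to 0.570%), against 577 of 4774 total cells, or 12.1% (11.2 to 13%). With at least 5 outside UMIs the shares were 1.0% (0.825 to 1.21%) of iNKT cells and 16.5% (15.5 to 17.6%) of total cells. The wider class held 691 iNKT cells, 6.30% (5.85 to 6.77%), and 1193 total cells, 25% (23.8 to 26.2%). None of these intervals overlapped between the libraries. Shallow cells could not enter a class, and counted over all filtered cells the stricter class was 0.417% of iNKT cells and 7.19% of total cells.

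The stricter cells, 0.417% of filtered iNKT and 7.19% of filtered total cells, held a smaller part of the G2/M transcripts in the iNKT library. They held 22.5% of the UMIs of the 42 genes in the iNKT library and 73.3% in the total library. For the median gene they held 40.0% of its UMIs in the iNKT library and 75.8% in the total library. Genes differed widely in this. ASPM, a spindle pole protein, had 79.7% of its iNKT UMIs and 89.1% of its total UMIs in these cells. The phosphatase CDC25B had 1.89% of its iNKT UMIs in them and 39.7% of its total UMIs. SMC4, the ATPase shared by both condensin complexes, had 4.85% in iNKT and 47.8% in total cells. Most CDC25B and SMC4 transcripts of the iNKT library therefore lay in cells without a strong division signal.

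Summed over whole libraries, the 42 genes reached 418 CPM (UMIs per 1000000) in iNKT thymocytes and 3457 CPM in total thymocytes, with a ratio of 0.121 (0.119 to 0.123). At least 2-fold lower levels in iNKT cells were seen for 41 of the 42, and none was at least 2-fold higher. Of the 10436 genes with at least 100 UMIs over both libraries, 17.5% were at least 2-fold lower and 11% at least 2-fold higher. The median log2 ratio was −3.76 for the 42 genes and −0.24 for all genes. CDC20, the activator of the anaphase-promoting complex, was lowest, with 4.26 CPM in iNKT and 140 CPM in total thymocytes. TOP2A, the topoisomerase that untangles chromosomes, had 22.6 CPM in iNKT and 275 CPM in total thymocytes. UBE2C, the ubiquitin-conjugating enzyme that works with the anaphase-promoting complex, had 10.9 CPM in iNKT and 293 CPM in total thymocytes. CDC25B was the exception, with 60.7 CPM in iNKT and 60.8 CPM in total thymocytes.

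By share of cells the G2/M genes were also rarer in iNKT thymocytes. In thinned cells the median gene was seen in 0.420% of iNKT cells and 5.48% of total cells, and without thinning in 1.0% of iNKT and 8.06% of total cells. The interval of the iNKT share lay wholly under that of the total share for 41 of the 42 genes, against 42% of all genes. KIF20A, a kinesin of the central spindle, was the rarest in iNKT cells, at 0.0821%, and was seen in 2.09% of total cells. CDC25B was seen in 11.8% of iNKT cells and 8.59% of total cells (22.8% of iNKT and 15.7% of total cells without thinning), but its CPM was equal, so no order is read from its shares.

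Cells with no UMI of the outside list or of an S-phase list gave the background, 1618 iNKT cells with a median depth of 4424.5 UMIs and 361 total cells with a median depth of 3294 UMIs. There the median gene was seen in 0.185% of iNKT cells and 0.277% of total cells. SMC4 was seen in 16.7% of such iNKT cells and 15.8% of such total cells, against 16.4% of all iNKT cells and 29.4% of all total cells. For 5 genes the share among all iNKT cells was at or below this background, and for none among total cells. These 5, by point estimate, were SMC4, CENPF, NCAPD2, ECT2 and ANLN. Other genes lay above the background share but within its interval, such as CDC25B at 11.8% against 11.4% (9.92 to 13.1%). Whether UMIs in the background cells were free RNA or the cells' own transcripts was not tested. Of the 42 genes, 4 had at least 100 UMIs in these cells, with 0 of them 2-fold or more lower in iNKT cells and 1 that much higher, beside 7.07% and 6.64% of all genes. The 1 was CDC25B, with 58.1 CPM in iNKT cells and 20.9 CPM in total cells, a ratio of 2.78 (1.89 to 4.27).

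**Figure D1:**
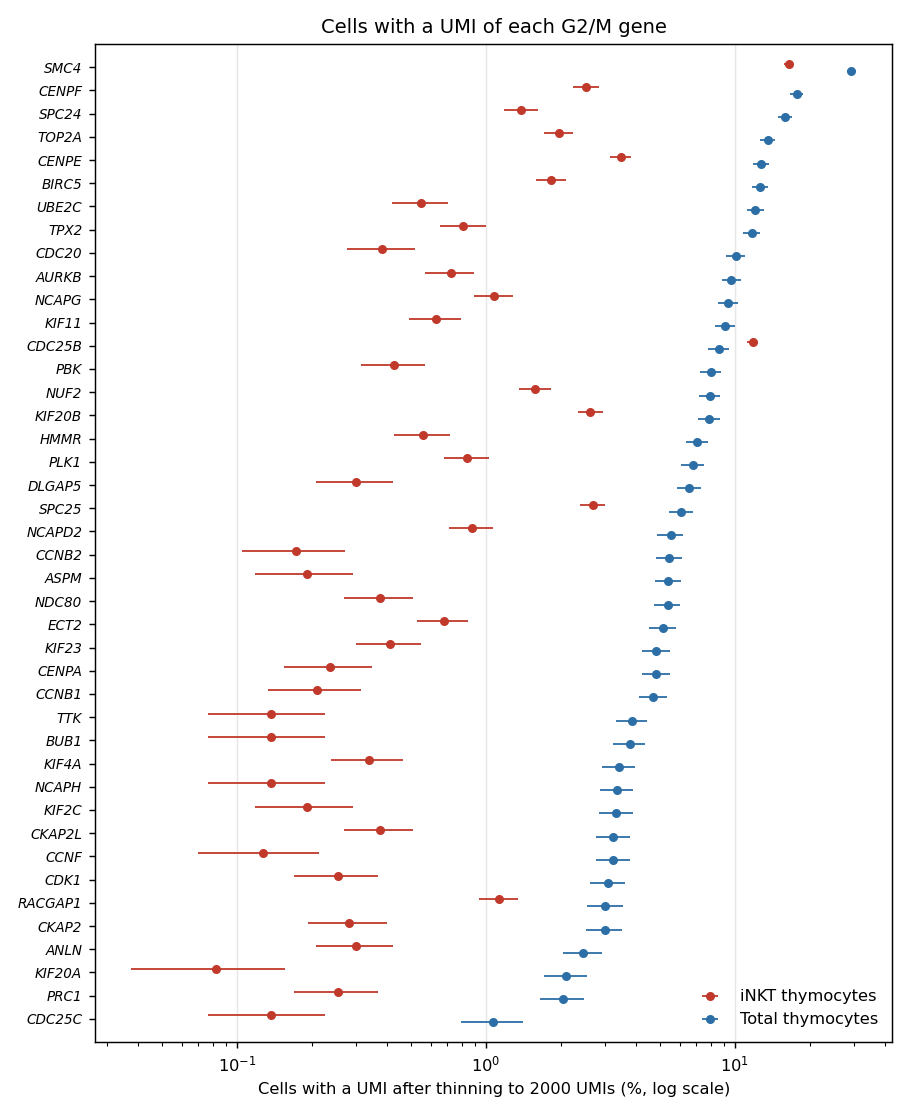
Share of thinned cells with a UMI of each of the 42 G2/M genes (x axis, percent, log scale) in iNKT thymocytes (red) and total thymocytes (blue), with exact 95% binomial intervals. Genes are ordered by their share in total thymocytes, and the iNKT point lies to the left for every gene except CDC25B, at 11.8% against 8.59%.

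By stage, the G2/M genes had their highest levels in cortical thymocytes. Thinned cells were gated by marker genes as mature, gamma-delta or cortical, with at least 2 UMIs of 1 stage list and fewer than 2 of the others. The lists included CCR7, KLF2, S1PR1, CD40LG and ZBTB7B for mature cells, SOX13, RHEX, TRDC and BLK for gamma-delta cells, and RAG1, RAG2, DNTT, PTCRA, CD1E, CD8B and ARPP21 for cortical cells. In iNKT thymocytes 9078 cells passed the mature gate and 35 of them were in the stricter class, 0.386% (0.269 to 0.536%). In total thymocytes the stricter class held 463 of 2513 cortical cells, 18.4% (16.9 to 20%), 13 of 265 gamma-delta cells, 4.91% (2.64 to 8.24%), and 6 of 575 mature cells, 1.04% (0.384 to 2.26%). These 3 intervals within total thymocytes did not overlap each other. The intervals of mature iNKT and mature total cells overlapped, and the order of these shares depended on the class. Shares in the wider class were 6.29% (5.80 to 6.81%) of mature iNKT cells and 4.87% (3.26 to 6.96%) of mature total cells, again with overlapping intervals. No order between mature iNKT and mature total cells is read from them. The wider class held 33.7% of cortical and 12.8% of gamma-delta total cells. No gate was passed by 1184 further total cells, 7.26% of them in the stricter class, and 237 passed more than 1 gate.

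Levels within total thymocytes followed the same order of stages. The 42 genes summed to 407 CPM in mature iNKT cells, and in total thymocytes to 5692 CPM in cortical cells, 2073 CPM in gamma-delta cells and 605 CPM in mature cells. Each of the 42 was highest in cortical cells among the 3 stages of total thymocytes, against 36.1% of all genes. In mature cells 41 were lowest, against 39.2% of all genes. The protein kinase AURKB, which corrects faulty chromosome attachments, had 6.07 CPM in mature iNKT cells, 189 CPM in cortical, 69.0 CPM in gamma-delta and 15.4 CPM in mature total cells. CENPF, a large kinetochore protein, had 23.9 CPM in mature iNKT cells, 605 CPM in cortical, 192 CPM in gamma-delta and 35.8 CPM in mature total cells. CDC25B alone was higher in mature total cells, at 34.0 CPM, than in gamma-delta cells, at 23.2 CPM, and it had 64.3 CPM in mature iNKT cells.

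Set against mature-gated total cells, the gap between the libraries was far smaller than over all cells. The ratio of the summed levels was 0.672 (0.636 to 0.711). Of the 32 genes with at least 100 UMIs, 13 had levels at least 2-fold lower in mature iNKT cells and 0 had levels at least 2-fold higher, beside 7.38% and 6.63% of all genes. The median log2 ratio was −0.91 for these 32 and −0.17 for all genes. TOP2A did not differ detectably, with 20.9 CPM in iNKT and 21.7 CPM in total cells, a ratio of 0.963 (0.720 to 1.32). Of the 32, CCNB1 had the lowest ratio, 0.206 (0.125 to 0.355), with 1.87 CPM in iNKT and 9.05 CPM in total cells. CDC25B was higher in iNKT cells, with a ratio of 1.89 (1.51 to 2.41). The mature total cells held only 6 stricter cells.

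**Figure D2:**
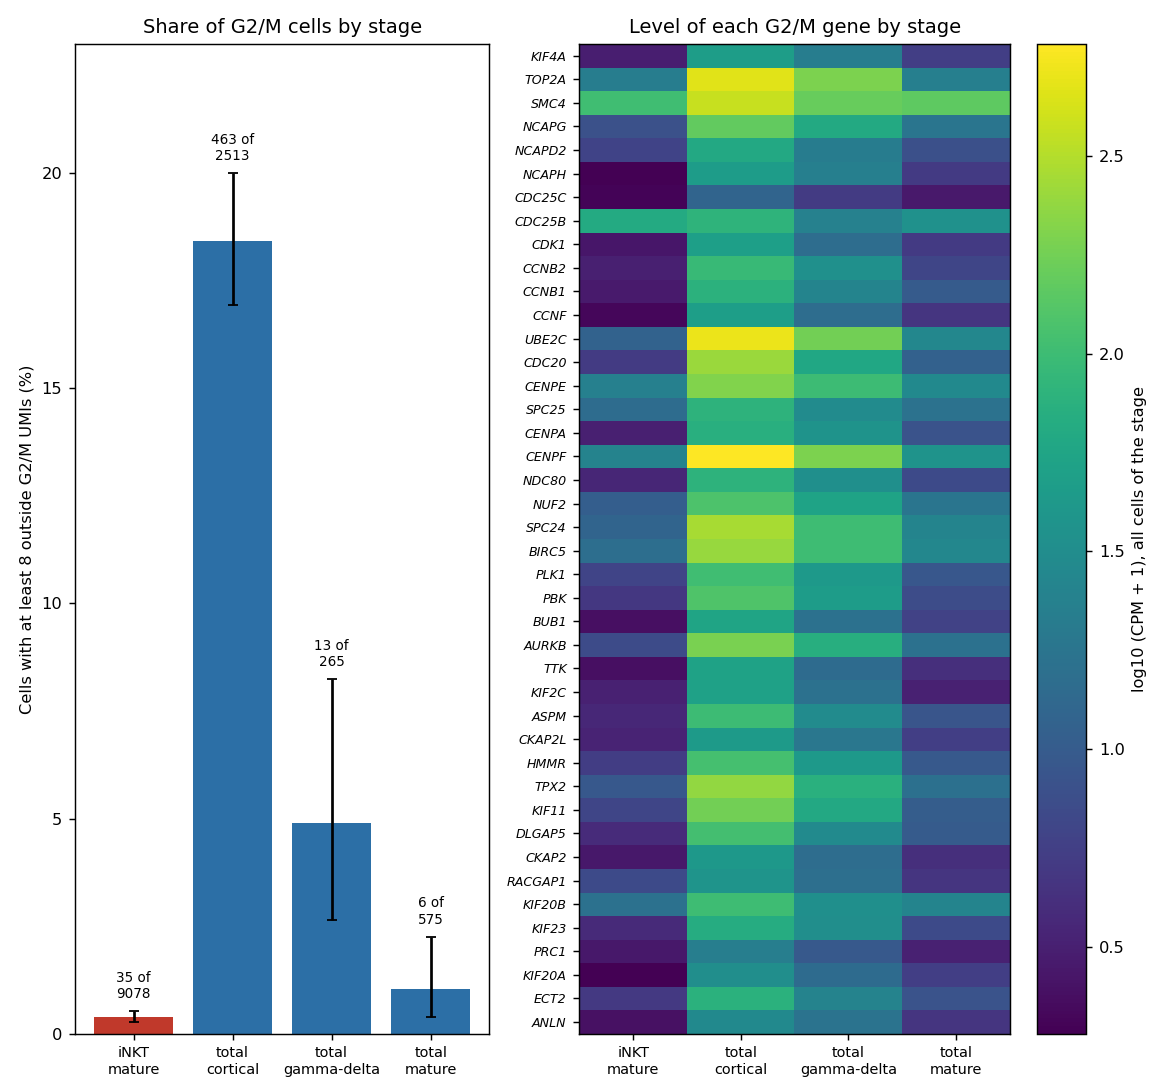
Left, share of cells in the stricter G2/M class (y axis, percent) for mature iNKT cells (red) and for cortical, gamma-delta and mature total cells (blue), with exact 95% intervals and the number of cells above each bar. Right, level of each of the 42 genes, as log10 of CPM plus 1, over all cells of each stage. Cortical cells have the tallest bar, 18.4%, and the highest level of each gene among the stages of total thymocytes.

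Clusters made without the 42 genes, the outside list or the S-phase list placed many of the dividing cells together. Other cell cycle genes were not left out. E2F8 was 1 of them, and was a leading gene of cluster 11 of the iNKT library and cluster 10 of the total library. The grouping is therefore not independent of the cell cycle. Cluster 11 of the iNKT library, 138 cells, held all 47 stricter iNKT cells, and they were 34.1% of it. In the total library cluster 10 held 432 stricter cells among 609 of sufficient depth (70.9%). Cluster 5, led by the myeloid genes S100A12 and S100A8, held 62 among 202 (30.7%), although both genes were at 0 in all 577 stricter total cells. Cluster 9, led by SOX13, a marker of gamma-delta cells, held 58 among 449 (12.9%), and cluster 6, led by the globin genes HBM and HBB, 15 among 353 (4.25%). Clusters are given by number because leading genes in some went against a marker-based name.

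Dividing iNKT cells carried iNKT and mature T cell transcripts and dividing total cells carried cortical ones. Cells with a UMI of a marker are counted here without thinning unless stated. ZBTB16 was seen in 38 of the 47 stricter iNKT cells, at 252 CPM, and in 1 of the 577 stricter total cells. After thinning, ZBTB16 was seen in 18 of these iNKT cells and 0 of these total cells. The chemokine receptor CCR7, a mature T cell marker, was seen in 46 of 47 iNKT cells, at 552 CPM, and in 39 of 577 total cells, at 15 CPM. After thinning, CCR7 was seen in 26 of 47 iNKT cells and 8 of 577 total cells. The 5 mature T cell markers summed to 1555 CPM in iNKT cells and 124 CPM in total cells. The 9 cortical markers summed to 4.54 CPM in iNKT cells and 2268 CPM in total cells. Of these 9, RAG1, RAG2, DNTT, PTCRA, CD1E, CD8B and CD4 were at 0 in the 47 iNKT cells, which at this depth allows up to 7.55% of such cells to show a UMI and sets no limit on the cells that carry the transcript. PTCRA, which pairs with the beta chain in the pre-T cell receptor, was seen in 433 of 577 total cells and CD8B in 446. After thinning, PTCRA was seen in 273 and CD8B in 338 of these total cells. The marker genes also place 80.2% of the stricter total cells in the cortical gate, so iNKT identity and stage cannot be told apart in what follows.

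The level of the 42 genes per dividing cell depended on how strictly the cells were picked. In the wider class their sum was 2227 CPM in iNKT cells and 8863 CPM in total cells, a ratio of 0.251 (0.246 to 0.257). With at least 5 outside UMIs it was 7262 CPM in iNKT and 11424 CPM in total cells, a ratio of 0.636 (0.620 to 0.652). In the stricter class it was 11362 CPM in iNKT and 14075 CPM in total cells, a ratio of 0.807 (0.784 to 0.831). UMIs of 1 cell are not independent, so these intervals do not cover the spread between cells.

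In bins of outside UMIs, the mean of the 42 genes was lower in iNKT than in total cells up to 7 and again from 15, with overlapping intervals between. The make-up of these UMIs differed, with TUBB4B supplying 30.6% in iNKT and 19.2% in total cells, so equal numbers need not mean an equal division signal. At 3 to 4 outside UMIs the mean was 0.943 UMIs of the 42 genes per thinned iNKT cell and 3.22 per total cell. There 316 of 581 iNKT cells and 118 of 405 total cells had no UMI of the 42 genes. At 5 to 7 it was 5.48 in 63 iNKT cells and 8.96 in 211 total cells. At 8 to 9 it was 15.6 (13.6 to 17.8) in 14 iNKT cells and 14.4 (13.6 to 15.2) in 94 total cells. At 10 to 14 it was 18.3 (16.1 to 20.7) in 14 iNKT cells and 18.5 (17.8 to 19.2) in 158 total cells. The intervals overlapped in both of these bins. At 15 to 24 it was 27.7 (24.8 to 30.8) in 12 iNKT cells and 32.9 (32.1 to 33.8) in 181 total cells. At 25 or more it was 40.4 (35.9 to 45.4) in 7 iNKT cells and 50.9 (49.8 to 52.1) in 144 total cells. In these last 2 bins the intervals did not overlap and the iNKT mean was lower, but the intervals do not cover the spread between cells. The quartiles of cells overlapped. They were 23.5 to 30.25 in iNKT and 24 to 41 in total cells at 15 to 24. At 25 or more, a bin without an upper limit, they were 37.5 to 46 in iNKT and 41.75 to 59 in total cells.

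**Figure D3:**
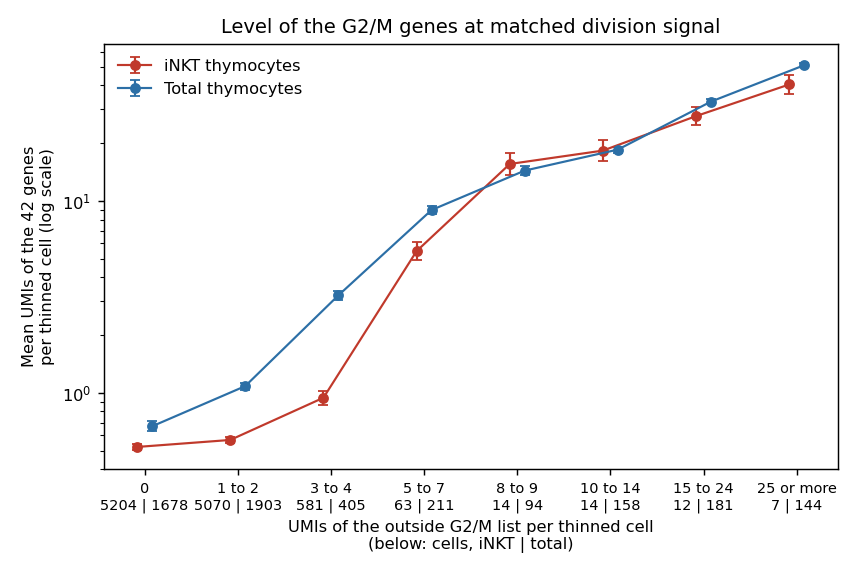
Mean UMIs of the 42 G2/M genes per thinned cell (y axis, log scale) by the number of outside G2/M UMIs in the same cell (x axis, bins, with cell numbers below), for iNKT (red) and total (blue) thymocytes. Bars are exact 95% Poisson intervals, which do not cover the spread between cells, and the last bin has no upper limit. iNKT means lie below total means up to 7 outside UMIs, from 8 to 14 the intervals overlap, and from 15 iNKT means lie below total means again without overlap, at 27.7 against 32.9 and 40.4 against 50.9.

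Cell by cell, the stricter classes overlapped broadly. A stricter iNKT cell had from 6 to 51 thinned UMIs of the 42 genes with a median of 23, and a stricter total cell from 2 to 111 with a median of 27. The number of the 42 genes seen in a thinned cell ran from 6 to 25 in iNKT cells, with a median of 15, and from 2 to 32 in total cells, with a median of 16. The 5 iNKT cells with the most such UMIs supplied 24.3% of them, and the 5 highest total cells 2.46%. These were 5 of 47 iNKT cells and 5 of 577 total cells, so no order is read from the 2 shares. Values of single genes in the 47 iNKT cells thus rest on few cells.

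In the wider class, iNKT cells had levels at least 2-fold lower for 41 of the 42 genes and at least 2-fold higher for none, beside 13.4% and 11.7% of all genes tested. The median log2 ratio was −2.01 for the 42 genes and −0.09 for all genes. With at least 5 outside UMIs, 4 genes were at least 2-fold lower and none higher, beside 9.37% and 8.28% of all genes. They were CDC20, TTK, CCNF and UBE2C. In the stricter class 0 of the 42 were at least 2-fold lower and 0 at least 2-fold higher, beside 10.1% and 7.15% of all genes. There the median log2 ratio was −0.33 for the 42 genes and −0.05 for all genes, with 33 of the 42 below 0 and 9 above. Genes are described by role below, with levels in the stricter class unless stated otherwise.

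Among CDK1 and its regulators the sum was 686 CPM in iNKT cells and 878 CPM in total cells, a ratio of 0.781 (0.693 to 0.877). CDK1 itself had 97.6 CPM in iNKT and 125 CPM in total cells, and its interval of 0.561 to 1.07 held 1. Both B cyclins, which activate CDK1, were lower. CCNB1 had 148 CPM in iNKT and 221 CPM in total cells, a ratio of 0.669 (0.513 to 0.859), and CCNB2 had 188 CPM in iNKT and 245 CPM in total cells, a ratio of 0.769 (0.608 to 0.961). CCNF, the F-box cyclin, had a ratio of 0.626 (0.429 to 0.883). The CDC25 phosphatases remove the inhibitory phosphates from CDK1. CDC25B had 139 CPM in iNKT and 134 CPM in total cells, a ratio of 1.03 (0.783 to 1.35). In the wider class CDC25B was the gene with the ratio closest to 1, at 0.785. CDC25C rested on 16 iNKT UMIs and had a ratio of 1.19 (0.664 to 1.99).

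Genes of the anaphase-promoting complex had the lowest ratios by role. Their sum had a ratio of 0.631 (0.580 to 0.686) in the stricter class and 0.159 (0.148 to 0.172) in the wider class, the lowest of the 7 roles in both. UBE2C had 983 CPM in iNKT and 1452 CPM in total cells, a ratio of 0.677 (0.613 to 0.746). CDC20 had 345 CPM in iNKT and 653 CPM in total cells, a ratio of 0.529 (0.446 to 0.622). CDC20 was seen in 23 of 47 iNKT cells (48.9%) and in 362 of 577 total cells (62.7%) after thinning. Against cortical total cells alone its log2 ratio was −1.12. The 12 other subunits and regulators of the complex tested had a median log2 ratio of 0.00 in the stricter class. Of these, CDC27 had a ratio of 0.613 (0.418 to 0.870), ANAPC15 of 0.638 (0.413 to 0.947) and UBE2S of 0.783 (0.705 to 0.867). The intervals of the others tested held 1.

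The mitotic kinases and their partners were closer, with a ratio of 0.860 (0.796 to 0.928) for the sum. TTK, the spindle checkpoint kinase also called MPS1, was the lowest of all 42 genes, with 63.6 CPM in iNKT and 124 CPM in total cells, a ratio of 0.514 (0.338 to 0.749). It rested on 28 iNKT UMIs, seen in 5 of 47 iNKT cells and 133 of 577 total cells after thinning. AURKB had 375 CPM in iNKT and 484 CPM in total cells, a ratio of 0.774 (0.657 to 0.907). Its partner BIRC5 (survivin) had 581 CPM in iNKT and 611 CPM in total cells, a ratio of 0.952 (0.835 to 1.08). PLK1, the polo-like kinase that acts at centrosomes and kinetochores, had a ratio of 0.934 (0.767 to 1.13). PBK, a kinase active in mitosis, had 0.929 (0.748 to 1.14), and the checkpoint kinase BUB1 had 0.804 (0.597 to 1.06). In this role the intervals of TTK and AURKB alone lay below 1.

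The kinetochore genes had a ratio of 0.758 (0.713 to 0.805) for the sum. CENPF had 1133 CPM in iNKT and 1503 CPM in total cells, a ratio of 0.754 (0.687 to 0.825). The 4 subunits of the NDC80 complex, which binds microtubules, had ratios from 0.628 to 0.855. SPC24 had 356 CPM in iNKT and 568 CPM in total cells, a ratio of 0.628 (0.532 to 0.738). NUF2 had 0.715 (0.574 to 0.881), NDC80 had 0.737 (0.562 to 0.952) and SPC25 had 0.855 (0.650 to 1.11). CENPE, a kinesin that carries chromosomes to the spindle equator, had 422 CPM in iNKT and 459 CPM in total cells, a ratio of 0.921 (0.789 to 1.07). The centromeric histone CENPA had a ratio of 0.794 (0.615 to 1.01).

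Chromosome condensation genes had a ratio of 0.873 (0.818 to 0.930) for the sum. TOP2A had 1158 CPM in iNKT and 1252 CPM in total cells, a ratio of 0.925 (0.843 to 1.01), and was seen in 32 of 47 iNKT cells and 465 of 577 total cells after thinning. SMC4 had 611 CPM in iNKT and 710 CPM in total cells, a ratio of 0.861 (0.757 to 0.974). The condensin I subunits NCAPG, NCAPD2 and NCAPH are dedicated partners of SMC4. NCAPG had a ratio of 0.783 (0.648 to 0.939) and NCAPD2 of 0.759 (0.557 to 1.01). NCAPH, the subunit that bridges the ring, had 52.2 CPM in iNKT and 98.5 CPM in total cells, a ratio of 0.530 (0.333 to 0.804) on 23 iNKT UMIs. KIF4A, a chromosome-bound kinesin, had a ratio of 1.11 (0.823 to 1.46).

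The 8 spindle genes had a ratio of 0.857 (0.798 to 0.920) for the sum. TPX2, which activates Aurora A on the spindle, had 465 CPM in iNKT and 592 CPM in total cells, a ratio of 0.786 (0.679 to 0.906). The kinesin KIF11, which pushes the spindle poles apart, had 0.776 (0.653 to 0.916). DLGAP5, which stabilises kinetochore fibres, had 0.751 (0.605 to 0.924), and CKAP2, a microtubule-associated protein, had 0.651 (0.435 to 0.941). The other 4 had intervals that held 1. HMMR, a spindle-associated hyaluronan receptor, had a ratio of 0.919 and CKAP2L of 1.0. ASPM had 277 CPM in iNKT and 265 CPM in total cells, a ratio of 1.04 (0.860 to 1.26). KIF2C, a kinesin that takes microtubules apart at the centromere, had 154 CPM in iNKT and 124 CPM in total cells, a ratio of 1.25 (0.955 to 1.60).

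Cytokinesis genes had nearly equal sums, with 929 CPM in iNKT and 934 CPM in total cells, a ratio of 0.994 (0.896 to 1.10) for the sum. RACGAP1, the GTPase-activating subunit of centralspindlin, had the highest ratio of the 42 genes. Its level was 118 CPM in iNKT and 91.5 CPM in total cells, a ratio of 1.29 (0.949 to 1.72), and it was seen in 13 of 47 iNKT cells and 93 of 577 total cells after thinning. KIF23, the kinesin subunit of the same complex, had 211 CPM in iNKT and 185 CPM in total cells, a ratio of 1.14 (0.914 to 1.42). KIF20B, a kinesin needed to complete cytokinesis, had 288 CPM in iNKT and 249 CPM in total cells, a ratio of 1.16 (0.958 to 1.39). ECT2, the exchange factor that turns on RhoA at the cleavage furrow, had a ratio of 0.729 (0.550 to 0.948). ANLN (anillin) had 0.659 (0.403 to 1.02), KIF20A had 0.817 (0.556 to 1.16) and PRC1, which bundles central spindle microtubules, had 0.887 (0.560 to 1.34). In the wider class iNKT cells had each of the 7 at least 2-fold lower, with RACGAP1 nearest the limit at 0.491. No ratio of a single gene above 1 had an interval that left out 1.

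**Figure D4:**
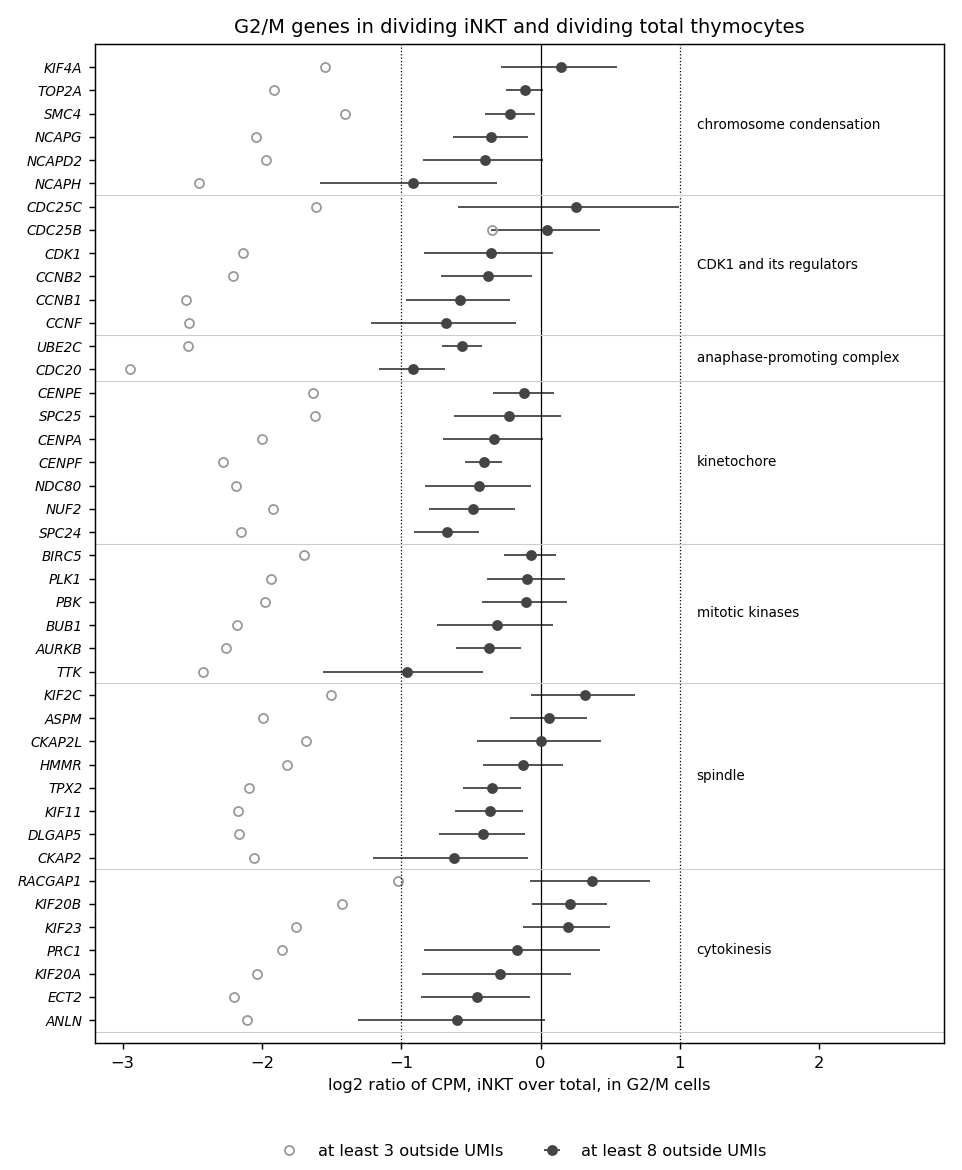
log2 ratio of CPM, iNKT over total thymocytes, for each of the 42 genes by role, in the wider class (open circles, at least 3 outside UMIs) and the stricter class (filled circles with exact 95% intervals, at least 8). Dotted lines mark 2-fold. Of the open circles 41 lie beyond the lower line, and no filled circle lies beyond either line.

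When total cells of the stricter class were weighted to the outside-list bins of the iNKT cells, the sum over the 42 genes was 11362 CPM in iNKT and 12966 CPM in total cells. The median log2 ratio was then −0.20, with 29 genes below 0 and 13 above. The stricter iNKT cells had a median depth of 9058 UMIs and the stricter total cells 7527 UMIs. Of 17501 UMIs of the globin gene HBB in stricter total cells, 99.8% lay in 2 cells. Without these cells the median log2 ratio was −0.34.

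The stricter class was divided by transcripts of an S-phase list. Cells without S transcripts, fewer than 3 such UMIs after thinning, numbered 15 of 47 in iNKT and 65 of 577 in total thymocytes. The 42 genes summed to 14700.5 CPM in iNKT cells without S transcripts and 10219.6 CPM in those with them. In total thymocytes they summed to 18773 CPM without and 13652 CPM with S transcripts. In cells with at least 3 S UMIs and fewer than 3 outside UMIs the sum was 352 CPM in iNKT and 998 CPM in total thymocytes. In both libraries the level was therefore highest in cells without S transcripts.

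Of single genes with at least 100 UMIs in the iNKT cells so divided, 3 of 16 were at least 2-fold higher in cells without S transcripts and 0 at least 2-fold lower, beside 3.16% and 3.99% of all genes. In total thymocytes 5 of 42 were at least 2-fold higher and 2 at least 2-fold lower, beside 2.48% and 10.3% of all genes. The median log2 ratio was 0.56 for the 16 genes in iNKT and 0.41 for the 42 in total thymocytes. CDC20 had 614 CPM without and 253 CPM with S transcripts in iNKT cells, a ratio of 2.43 (1.74 to 3.38). In total cells it had 1214 CPM without and 602 CPM with S transcripts, a ratio of 2.02 (1.83 to 2.22). ASPM had a ratio of 3.93 (2.71 to 5.74) in iNKT and 2.45 (2.13 to 2.82) in total cells, and both genes passed 2-fold in each library. The other one in iNKT cells was CENPE, at 2.25 (1.67 to 3.04) in iNKT and 1.39 (1.22 to 1.58) in total cells. The others in total cells were CCNB1, CENPA and CDC25C, which had fewer than 100 UMIs in iNKT cells. CCNB1 had a ratio of 2.08 (1.22 to 3.49) in iNKT and 2.51 (2.15 to 2.92) in total cells. CENPA had 2.40 (1.45 to 3.93) in iNKT and 2.19 (1.85 to 2.58) in total cells, and CDC25C, on 16 iNKT UMIs, had 4.87 (1.60 to 16.3) in iNKT and 2.2 (1.39 to 3.38) in total cells.

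PBK, on fewer than 100 iNKT UMIs, lay on the opposite side. It had 89.0 CPM without and 268 CPM with S transcripts in iNKT cells, a ratio of 0.332 (0.154 to 0.640), and 75.3 CPM without and 254 CPM with S transcripts in total cells, a ratio of 0.296 (0.201 to 0.420). SPC25, the other gene at least 2-fold lower in total cells, had a ratio of 0.630 (0.296 to 1.22) in iNKT and 0.436 (0.296 to 0.621) in total cells, and SPC24 of 0.634 (0.406 to 0.960) in iNKT and 0.627 (0.530 to 0.737) in total cells. CKAP2L had 0.348 (0.107 to 0.878) in iNKT and 1.07 (0.776 to 1.44) in total cells, on 5 UMIs in the 15 iNKT cells. ANLN, at 0.487 (0.0919 to 1.67) in iNKT and 1.15 (0.790 to 1.64) in total cells, also rested on few iNKT UMIs. No difference between libraries in these ratios was tested.

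**Figure D5:**
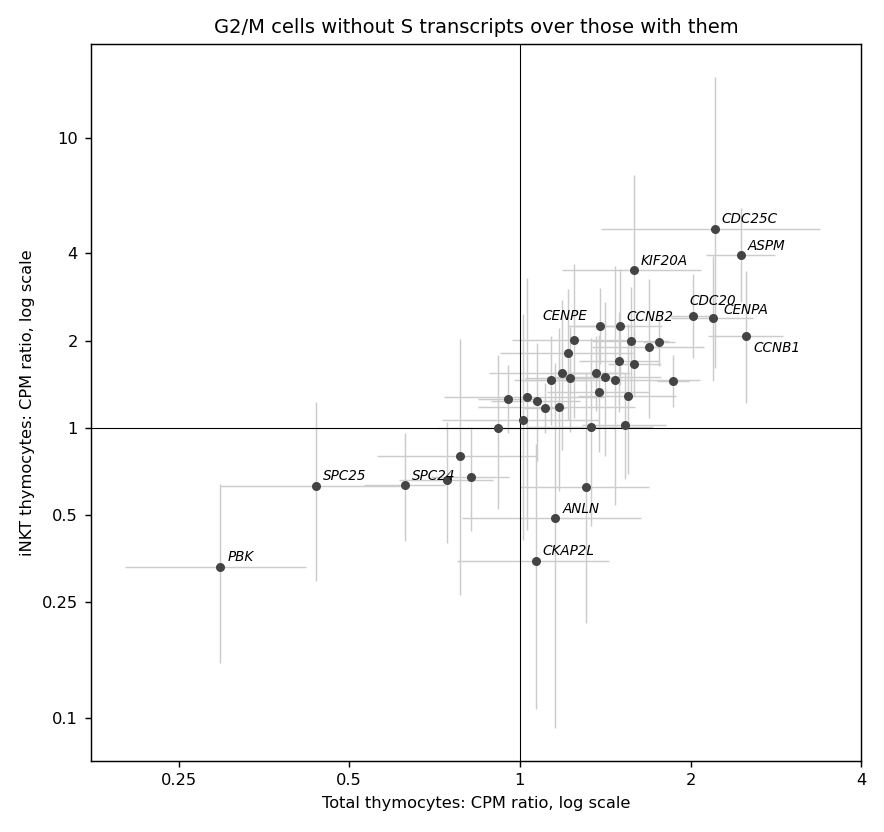
Ratio of CPM in stricter G2/M cells without S transcripts over those with them, for each of the 42 genes, in iNKT thymocytes (y axis, log scale) and total thymocytes (x axis, log scale), with exact 95% intervals. CDC25C, ASPM, CDC20, CENPA and CCNB1 lie above 2 on both axes, and PBK lies below 0.5 on both.

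Other genes of the pathway were taken from 5 lists, with genes of at least 100 UMIs counted. In the stricter class 0 of 12 subunits and regulators of the anaphase-promoting complex and 0 of 12 cohesin and further condensin genes were 2-fold apart in either direction. Their median log2 ratios were 0.00 and −0.22. The counts used log2 ratios after 0.5 was added to each sum. By ratio of CPM, NCAPG2, at 0.492 (0.324 to 0.718), and STAG1, at 0.498 (0.367 to 0.660), lay just past 2-fold lower in iNKT cells. RAD21 had 0.552 (0.446 to 0.677), STAG2 had 0.550 (0.435 to 0.688) and SMC2 had 0.832 (0.719 to 0.957). The intervals of the other cohesin and condensin genes of this list held 1. For G2/M transcription factors and the DREAM and MuvB complexes the median was −0.31. Of 9 such genes 0 were higher and 1, near the share of all genes, was lower. It was TFDP2, the dimer partner of E2F factors, with 31.8 CPM in iNKT and 510 CPM in total cells, a ratio of 0.0624 (0.0340 to 0.105). TFDP2 differed as much over whole libraries, with 35.7 CPM in iNKT and 491 CPM in total thymocytes.

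Of 10 G1 cyclin and E2F genes, dividing iNKT cells had 4 at least 2-fold lower and 0 higher, with a median of −0.41, beside 10.1% lower and 7.15% higher of all genes. CCND2, a D cyclin, had fewer than 100 UMIs here and is not in that count, with 40.9 CPM in iNKT and 3.89 CPM in total cells, a ratio of 10.5 (5.24 to 20.9) on 18 iNKT and 20 total UMIs. CCND3, the D cyclin of proliferating immature thymocytes in mice, had 250 CPM in iNKT and 621 CPM in total cells. Its kinase CDK6 had 38.6 CPM in iNKT and 144 CPM in total cells. E2F2 had 45.4 CPM in iNKT and 131 CPM in total cells, and the repressor E2F8 had 36.3 CPM in iNKT and 95.0 CPM in total cells. Among inhibitors and checkpoint kinases, WEE1, which holds CDK1 inactive, had 34.1 CPM in iNKT and 94.3 CPM in total cells. The checkpoint kinase CHEK2 had 38.6 CPM in iNKT and 18.3 CPM in total cells, a ratio of 2.11 (1.18 to 3.57) on 17 iNKT UMIs. In the wider class its ratio was 1.23 (0.879 to 1.69), with an interval that held 1.

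In the wider class the counts were 3 of 13 lower for the anaphase-promoting complex, 7 of 12 for cohesin and condensin, 4 of 9 for transcription factors, 7 of 13 for G1 cyclins and E2F and 3 of 8 for inhibitors, beside 13.4% of all genes. The only gene of these lists with at least 100 UMIs that was at least 2-fold higher there was CCND2, beside 11.7% of all genes, with 183 CPM in iNKT and 5.92 CPM in total cells. Over whole libraries CCND2 had 215 CPM in iNKT and 26.2 CPM in total thymocytes.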

How the data were processed

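Each deposited matrix gives raw UMI counts by gene and cell barcode, per the file headers. Per the submitters' processing notes, Cell Ranger 3.1 and Seurat 3.1 belong to the processing, and Cell Ranger 3.1.0 stands in the matrix header. The genome build was not given in the sources used here.

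Cell filters asked for 500 or more genes and no more than 10% mitochondrial UMIs (13 genes). Scrublet (scanpy 1.11.5) called 1 iNKT and 0 total cells, too few to be of use, and doublets were kept. An alternative removed the 902 iNKT and 642 total cells with the highest scores. UMIs were summed over the cells of a class and scaled to CPM. CPM values have exact Poisson intervals, ratios exact conditional binomial intervals and shares exact Clopper-Pearson intervals (scipy 1.17.1). A gene was counted as 2-fold apart on log2 ratios after 0.5 was added to each sum, with at least 100 UMIs over both groups. The computation was tested on simulated data. Clusters used 2000 variable genes, 30 components, 15 neighbours and the Leiden method at resolution 1 (igraph 0.11.9). TMM factors came from edgeR 4.0.16.

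The genes and lists were chosen with earlier results of these data known. A few genes of the marker and pathway lists, and the count for inhibitors and checkpoint kinases in the stricter class, are not reported here. By a fixed rule, the genes given in full were the 10 highest in wider-class total cells, those 2-fold apart there and the 5 nearest to a ratio of 1. The 2-fold rule took in 41 of the 42. The wider class, with alternatives of 2 and 5 outside UMIs, was the planned choice, and the stricter class was added after the data had been seen. Both are printed because the count of genes 2-fold apart depends on the choice.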

Additional observations from a re-analysis of the deposited data

How the results depend on the processing

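The size of the gap per dividing cell followed the least number of outside UMIs. The median log2 ratio of the 42 genes was −2.98 at 2, −2.01 at 3, −0.61 at 5 and −0.33 at 8, and the number at least 2-fold lower was 41, 41, 4 and 0. Of all genes, 13.4% were at least 2-fold lower at 3, 9.37% at 5 and 10.1% at 8. The count at 5 was near that share and the count at 8 under it. For the other settings of this section the share of all genes is not given. The stricter level of 8 and the settings combined with it were chosen after seeing the data. The share of cells was 19.0% of iNKT and 37.5% of total cells at 2, 1.0% of iNKT and 16.5% of total cells at 5, and 0.429% of iNKT and 12.1% of total cells at 8, and in mature-gated cells at 8 it was 0.386% of iNKT and 1.04% of total cells. Over stages of total thymocytes it was 46.5% of cortical, 16.7% of mature and 24.9% of gamma-delta cells at 2, then 23.7%, 1.04% and 6.79% at 5, and 18.4%, 1.04% and 4.91% at 8. With a stage gate of 1 UMI 36.5% of cortical cells were in the wider class. Thinning to 1000 UMIs gave shares of 1.65% of iNKT and 10.8% of total cells, 26 genes lower and a median of −1.14. In the wider class the median was −2.43 with at most 5% mitochondrial UMIs, −1.95 without the highest doublet scores, −2.64 on thinned UMIs, −2.75 with equal weight per cell, −1.40 with cells chosen by the other members, −2.87 in all dividing cells and −2.22 against cortical-gated cells. In the stricter class it was −0.38 without the highest doublet scores, −0.44 with TMM factors and −0.44 against cortical-gated cells, each with 2 genes lower (CDC20 and TTK), and −0.34 without HBB cells and −0.20 with weighted bins, each with 0 lower. The cause of these shifts was not tested. No setting gave a gene at least 2-fold higher.

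Each of the 42 genes had a log2 ratio below 0 in the wider class, and some were above 0 in a stricter one. RACGAP1 was at 0.10 with 5 outside UMIs. With 8, values were 0.38 for RACGAP1, 0.33 for KIF2C, 0.29 for CDC25C, 0.22 for KIF20B, 0.20 for KIF23, 0.16 for KIF4A, 0.068 for ASPM and 0.017 for CKAP2L. Without the highest doublet scores they were 0.51 for RACGAP1, 0.15 for KIF2C, 0.32 for CDC25C, 0.10 for KIF20B, 0.13 for KIF23, 0.12 for KIF4A, 0.038 for ASPM and 0.015 for BIRC5. With TMM factors they were 0.27 for RACGAP1, 0.22 for KIF2C, 0.18 for CDC25C, 0.11 for KIF20B, 0.092 for KIF23 and 0.048 for KIF4A. Against cortical-gated cells they were 0.27 for RACGAP1, 0.21 for KIF2C, 0.13 for CDC25C, 0.10 for KIF20B, 0.082 for KIF23 and 0.062 for KIF4A. Without HBB cells they were 0.37 for RACGAP1, 0.31 for KIF2C, 0.29 for CDC25C, 0.21 for KIF20B, 0.19 for KIF23, 0.15 for KIF4A, 0.059 for ASPM and 0.011 for CKAP2L. With weighted bins they were 0.51 for RACGAP1, 0.42 for KIF2C, 0.39 for CDC25C, 0.35 for KIF20B, 0.34 for KIF23, 0.28 for KIF4A, 0.24 for ASPM, 0.15 for CKAP2L, 0.059 for PLK1, 0.051 for BIRC5, 0.019 for TOP2A and 0.020 for PRC1. CDC25B, not 2-fold apart in any setting, was above 0 with 8 outside UMIs and below 0 there with TMM factors.

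No paired analysis was possible because each group was 1 library. Stages by cluster gave values but no alternative to the gates, since clusters mixed stages. With 47 stricter iNKT cells, single genes of low count are imprecise, and the spread between pigs is unknown.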

Other observations

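Of the 8 listed symbols that were missing from the gene names of the matrices, 3 were matched by gene identifier through a table of gene names. NUSAP1, a spindle-associated protein, had 14.9 CPM in iNKT and 354.5 CPM in total thymocytes over whole libraries. BUB1B, the checkpoint protein BUBR1, had 2.53 CPM in iNKT and 39.5 CPM in total thymocytes, and GTSE1 had 1.76 CPM in iNKT and 31.8 CPM in total thymocytes. MKI67, CCNA2, AURKA, PTTG1 and TACC3 had no match and were not analysed here.

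Among stricter cells of the total library, 13 passed the gamma-delta gate and 463 the cortical gate. CDC20 had 425 CPM in gamma-delta cells and 753 CPM in cortical cells, a ratio of 0.564 (0.434 to 0.722). CENPF had 1105 CPM in gamma-delta cells and 1686 CPM in cortical cells, a ratio of 0.655 (0.559 to 0.763). TOP2A had 1262 CPM in gamma-delta cells and 1351 CPM in cortical cells, a ratio of 0.934 (0.805 to 1.08). NCAPH was the highest by ratio, with 163 CPM in gamma-delta cells and 102 CPM in cortical cells, 1.60 (1.02 to 2.40). These genes were chosen after their values had been seen.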
